A study of Mus musculus with 2 samples.

Results

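The GIMAP family (GTPases of immunity-associated proteins) was followed in 2 RNA libraries from newborn mouse thymus. The 8 mouse genes Gimap1, Gimap3, Gimap4, Gimap5, Gimap6, Gimap7, Gimap8 and Gimap9 were chosen by name and matched by gene identifier among 43346 mouse genes in the tables. Both libraries belong to 1 group: whole thymus of B6NCrl mice at postnatal day 0, with no further treatment or allele named and the sex of the pups not collected. Pup 6 of a Charles River female gave replicate 1 and pup 7 gave replicate 2, and both carry the same donor entry in the labels. Each library was made from 13 pg of total RNA longer than 200 nt, an amount the labels equate with the content of 1 cell, so the label single cell RNA-seq describes an input amount and not a picked cell. With 1 group there was no condition to compare and no test. Differences are given as replicate 1 over replicate 2, and they hold pup, RNA handling and library together.

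GIMAP proteins are guanine nucleotide-binding proteins of vertebrates that are made mainly in lymphocytes and blood-forming cells, and many of them sit on membranes inside the cell. Their genes lie side by side, and loss of Gimap5 in mice or rats leaves the animals short of T cells, which die early. The thymus is where T cells are made and selected, and members of the family are known to be switched on or off as thymocytes mature.

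The libraries held 25999043 and 31902773 expected counts in mouse genes (estimated reads that need not be whole), with 10275 and 11764 genes at 1 or more counts in replicates 1 and 2. Levels are given as TPM, the share of transcripts scaled to a total of 1000000, which corrects for length and depth and was rescaled here to mouse genes. The tissue label was checked against 12 genes that define T cells, among them Trbc2, Trbc1 and Cd3e of the T-cell receptor complex and the kinase Lck. All 12 were read in both libraries, and they summed to 15707 TPM in replicate 1 and 15488 TPM in replicate 2. That sum was led by Trbc2, at 6500 and 6037 TPM in replicates 1 and 2. Single genes differed in both directions, with 6 of the 12 lower in replicate 1. Thy1 stood at 160 and 49.2 TPM and Cd247 at 159 and 401 TPM in replicates 1 and 2. Whole tissue was used, so fewer cells of a type and less RNA per cell cannot be told apart.

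These proteins bind GTP through a phosphate-binding loop, in which glycines and a lysine hold the nucleotide. Its coding stretch is shown for each gene because it is what the 8 members share and because it shows how close Gimap3 and Gimap5 are. The stretches were found by translating the first listed coding transcript of each gene in GENCODE M21 (GRCm38, the assembly also called mm10) and searching for a glycine, 4 residues of any kind, a glycine, a lysine and a serine or threonine. Capitals mark the codons of the last glycine, the lysine and the serine, and 1 such loop was found in each transcript. All run 5′ to 3′ on the strand of the gene.
Gimap1, chr6:48742552-48742575, plus strand: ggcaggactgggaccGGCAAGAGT
Gimap3, chr6:48765887-48765910, minus strand: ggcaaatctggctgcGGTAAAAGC
Gimap4, chr6:48690421-48690444, plus strand: ggaaaaactggagcaGGAAAGAGT
Gimap5, chr6:48752594-48752617, plus strand: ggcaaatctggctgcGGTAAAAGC
Gimap6, chr6:48702750-48702773, minus strand: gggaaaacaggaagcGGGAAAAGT
Gimap7, chr6:48723524-48723547, plus strand: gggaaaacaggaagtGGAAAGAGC
Gimap8, chr6:48650256-48650279, plus strand: gggaaacagggcgcaGGCAAAAGT
Gimap9, chr6:48677523-48677546, plus strand: gggaagactggaaatGGGAAGAGT

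The stretches of Gimap3 and Gimap5 were the same letter for letter. Over their whole coding sequences these genes were 90.4% identical across 895 aligned bases. The other pairs among the 28 were less alike. The next closest were Gimap6 with Gimap8, at 69.1% of 732 bases, and Gimap4 with Gimap9, at 68.0% of 584 bases, and the median pair stood at 63.0%. Likeness bears on the counts, since the authors' estimate divides reads that fit more than 1 gene. In M21 transcripts, 41 of the 1869 windows of 100 bases in Gimap3-201 also occur in Gimap5, a share of 2.19%. Gimap4-201, Gimap6-201, Gimap7-201, Gimap8-201 and Gimap9-201 share no such window with any other gene on either strand. Gimap1-201 shares 7.39% of its windows with Gimap1os or Gm28053, and Gimap5-201 shares 5.18% with Gimap3 or Gm28053. The annotation behind the deposited tables is an older release. In those tables Gimap3-201 has 906 bases against 1968 in M21, and Gimap8-201 has 3654 against 3160, so the windows and loops of these 2 genes describe the newer models. The Gimap8 coding region searched in M21 has 1047 bases, and a loop outside it would not have been found.

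Gimap6, Gimap9, Gimap5 and Gimap1 carried the family's reads, and Gimap3, Gimap4, Gimap7 and Gimap8 were at or near 0 in both libraries. Summed over the 8 members, the family stood at 399 TPM in replicate 1 and 972 TPM in replicate 2 (686 ± 405, SD, n = 2), a log2 ratio of −1.29. In reads this was 9701 counts in replicate 1 and 31212 in replicate 2. At 1 or more counts, replicate 1 held reads of 4 members and replicate 2 of 6, and 4 of the 8 had reads in both. Reads in both were found for 19.0% of all mouse genes and 32.1% of protein-coding genes. Gimap1 passed in replicate 1 with 1.01 counts, and at 10 or more counts 3 members were read in both.

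**Figure D1:**
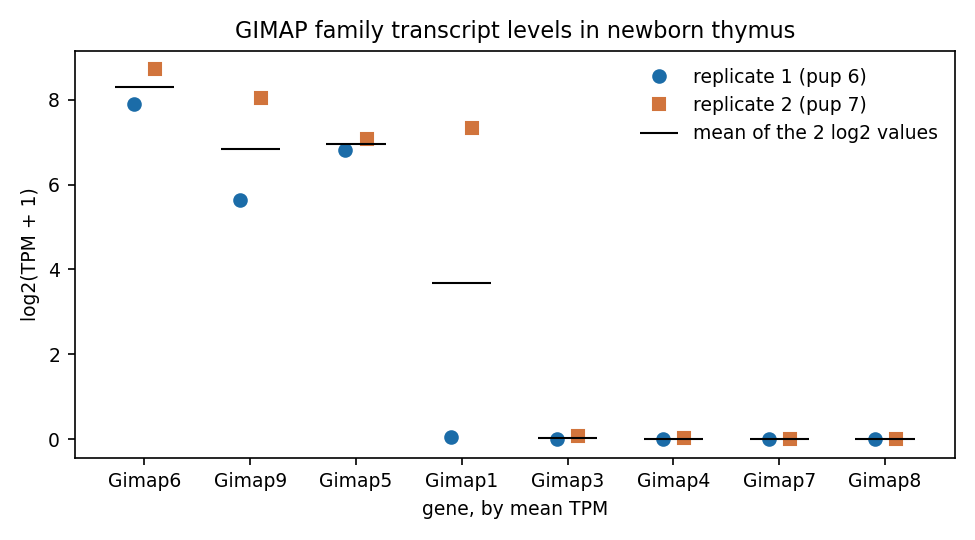
Level of each GIMAP gene in newborn thymus on a log2(TPM + 1) scale (vertical axis), with genes ordered by mean TPM (horizontal axis), a circle for replicate 1, a square for replicate 2 and a line at the mean of the 2 log2 values. Gimap6, Gimap9 and Gimap5 were well above 0 in both libraries, Gimap1 was at 0.0321 TPM in replicate 1 and 159 TPM in replicate 2, and the other 4 genes lay at or near 0.

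Gimap6, whose protein binds the autophagy protein Gabarapl2 and takes part in autophagy in T cells, was the highest member in both libraries. It lies on the minus strand at chr6:48701582-48708225. It had 7278 counts and 238 TPM in replicate 1, against 15239 counts and 419 TPM in replicate 2 (328 ± 127 TPM, SD, n = 2). That mean ranked it 515th of all mouse genes, with 1.19% of genes above it. Gimap6 made up 59.7% of the family's summed TPM in replicate 1 and 43.1% in replicate 2. Its log2 TPM ratio of −0.81 is under the 4-fold difference used here as a call, and 6.99% of genes with a mean of 200 to 400 TPM passed that call.

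Gimap9, a member found in mice and rats, came next by mean level (chr6:48676129-48679114, plus strand). It stood at 48.6 TPM in replicate 1, from 1277 counts, and at 261 TPM in replicate 2, from 7745 counts (155 ± 150 TPM, SD, n = 2). The log2 TPM ratio was −2.40, past the 4-fold call. The SD was nearly as large as the mean, so a level for Gimap9 in this tissue is known only to within that spread. Among genes with a mean of 100 to 200 TPM, 15.8% differed by 4-fold or more between these libraries, so a difference of this size at this level was not rare.

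Gimap5, which protects T cells from death and whose protein sits on lysosomes, had close gene levels of 112 TPM in replicate 1 and 134 TPM in replicate 2 (123 ± 15.5, SD, n = 2), a log2 TPM ratio of −0.26. The gene lies at chr6:48746197-48754210 on the plus strand. Its counts were further apart, 1145 in replicate 1 and 3342.95 in replicate 2, which is 44.0 and 105 counts in each 1000000 mouse counts. On that scale, with no correction for length, the log2 ratio was −1.23. The gene's estimated length was 599 bases in replicate 1 and 1180 bases in replicate 2, an average over the transcripts credited with its reads.

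Gimap1, without which mature T and B cells are lost in mice, was the member that differed most between the pups (chr6:48739054-48743795, plus strand). Replicate 1 held 1.01 counts, or 0.0321 TPM, and replicate 2 held 4883.39 counts, or 159 TPM (79.3 ± 112, SD, n = 2). The ratio of counts per mouse count was 0.000251, with a 95% exact interval of 0.00000636 to 0.0014 that covers read counting only. Gimap1 was nearly absent from the reads of one newborn thymus library and stood above Gimap5 in the other. Among genes with a mean of 50 to 100 TPM, 13.5% were at no more than 3 counts in 1 library and 31.5% differed by 4-fold or more. At 100 to 200 TPM, the range of Gimap9 and Gimap5, 3.93% of genes were as low as that in 1 library, and at 200 to 400 TPM, the range of Gimap6, 0.200% were.

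The remaining members gave no usable signal in either library. Gimap3, which affects how mitochondrial DNA variants are sorted in mouse blood cells, had 0 counts in replicate 1 and 1.05 in replicate 2. Gimap4, which affects the timing of T-cell death in mice, had 0 counts in replicate 1 and 1 in replicate 2. Gimap7, whose human counterpart is a GTPase that also acts on another member of the family, and Gimap8 had 0 counts in both. A count of 0 allows up to 3 counts, which for Gimap7 is 0.125 TPM in replicate 1 and 0.111 TPM in replicate 2, and for Gimap8 is 0.0413 and 0.0365 TPM. For Gimap3 and Gimap4 the same limit is 0.182 and 0.145 TPM in replicate 1. These limits cover read counting and not the molecules lost before sequencing. Having 3 or fewer counts in both libraries was common, at 54.3% of protein-coding genes, so the 4 members at that level did not stand out by it.

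The order of the members by level was the same in both libraries at the top and differed below it. Gimap6 was first in each library, and Gimap3, Gimap4, Gimap7 and Gimap8 were at or near 0 in each. In replicate 1 Gimap5 came next after Gimap6, then Gimap9, and Gimap1, at 1.01 counts, was under the floor of 3 counts and cannot be ranked against the members at 0, whereas in replicate 2 Gimap9 came next, then Gimap1 and Gimap5. The 2 values of Gimap6, 238 and 419 TPM, lay above both values of Gimap5 but spanned the higher value of Gimap9. Gimap9, Gimap5 and Gimap1 overlapped one another and do not differ beyond the spread between the libraries.

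Averaging at least 100 counts, 4 members could be compared by ratio. All 4 were lower in replicate 1, as were 53.0% of the 9341 mouse genes with such counts. Gimap1 and Gimap9 passed the 4-fold call and both were lower in replicate 1. Gimap1, at 1.01 counts in replicate 1, met the count minimum only through replicate 2, so its direction was fixed by that filter. The 9341 genes include others that entered through 1 library. Of all genes at that level 50.9% passed the call in either direction, 29.4% lower in replicate 1 and 21.5% higher. The median log2 TPM ratio was −1.61 over the 4 members and −0.17 over all 9341 genes. The count of 2 in 4 is thus close to the share over all genes with such counts. At the members' own levels fewer genes passed the call in either direction. The shares were 31.5% at a mean of 50 to 100 TPM, 15.8% at 100 to 200 TPM and 6.99% at 200 to 400 TPM.

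**Figure D2:**
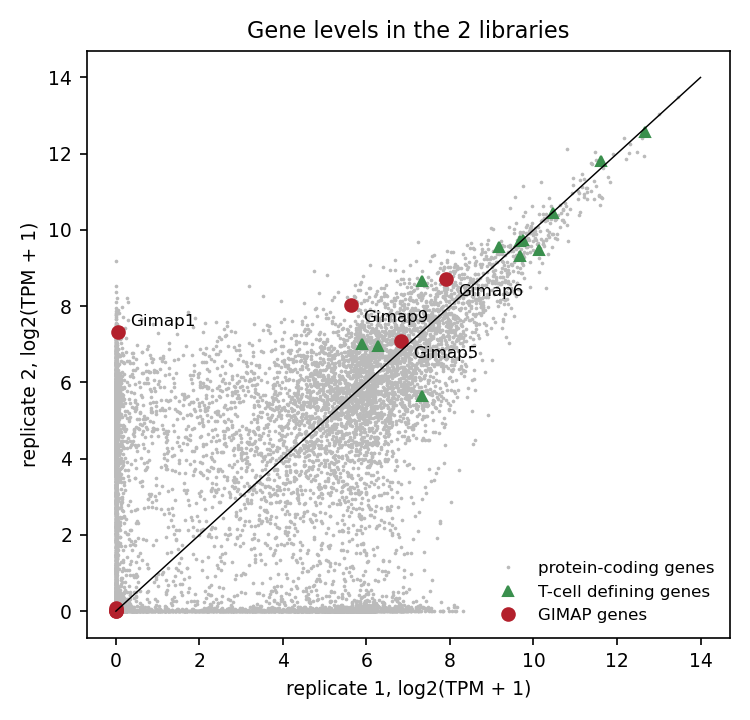
Levels of protein-coding genes in replicate 1 (horizontal axis) and replicate 2 (vertical axis), both as log2(TPM + 1), with grey points for single genes, green triangles for the 12 T-cell defining genes, red circles for the 8 GIMAP genes and a line where both libraries are equal. Gimap5 and Gimap6 lie near the line, Gimap9 lies above it, Gimap1 lies at the left edge among other genes with almost no reads in replicate 1, and the 4 other members lie at the origin.

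The transcript tables showed what the gene levels were made of. Among the 21 transcripts of the 8 genes, 14 had reads in at least 1 library and 6 had reads in both. Gimap6, Gimap9 and Gimap1 were carried by a main coding transcript. Gimap6-201 held 7276.97 counts and 238 TPM in replicate 1, against 13234.9 counts and 383 TPM in replicate 2, which the authors' deposited isoform percentage gives as 99.95% and 91.59% of the gene's TPM. Gimap6-202, a longer coding form of 3179 bases, had 0 counts in replicate 1 and 1944.41 counts, or 27.3 TPM, in replicate 2. Gimap6 thus showed 1 main form in one pup and 2 forms with over 1000 counts in the other. Gimap9-201 held all 1277 counts of its gene in replicate 1 and 7741.07 in replicate 2. Gimap1-201 held 1.01 counts in replicate 1 and 4833.72 in replicate 2, where the short form Gimap1-202 added 47.56 counts.

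Gimap5 was split differently in each library, and its near-equal gene level hid a difference in its coding transcript. Gimap5-201, the transcript that encodes the protein, had 173 counts in replicate 1 and 2448.52 in replicate 2. Its level was 4.57 TPM in replicate 1 and 57.2 TPM in replicate 2 (30.9 ± 37.2, SD, n = 2), a log2 TPM ratio of −3.39. Its share of the gene's counts was 15.1% in replicate 1 (exact binomial 95% limits 13.1 and 17.3), against 73.3% in replicate 2 (71.7 and 74.8). The rest went to a pair of short transcripts annotated as processed transcripts without a coding region. Gimap5-202, of 464 bases, stood at 48.5 TPM in replicate 1 and 1.04 TPM in replicate 2. Gimap5-203, of 606 bases, stood at 58.9 and 75.6 TPM in replicates 1 and 2. Together the non-coding forms reached 107 TPM in replicate 1 and 76.7 TPM in replicate 2 (92.0 ± 21.7, SD, n = 2), a log2 TPM ratio of 0.48. By TPM, then, the authors' estimate credits more of Gimap5 to the non-coding forms than to the coding form in both libraries, and by counts it does so in replicate 1 alone. The log2 ratio of the coding form was larger in size than that of Gimap9.

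The 3 transcripts of Gimap5 share part of their exons. All 3 begin with nearly the same first exon, which in Gimap5-201 runs over 234 bases at chr6:48746197-48746430 and holds no coding base. Gimap5-201 then continues with an exon of 49 bases at chr6:48750454-48750502 and a last one of 1670 bases at chr6:48752541-48754210, which hold 43 and 881 of its 924 coding bases. Gimap5-202 ends instead in an exon at chr6:48747281-48747512 and Gimap5-203 in one at chr6:48747113-48747485, inside the first intron of Gimap5-201. These last exons overlap each other, so reads in the overlap and in the first exon were shared out by estimate. The binomial limits given for the shares treat the estimated counts as if they were observed and do not hold that uncertainty. Whether reads from unspliced RNA in this intron were counted toward the short forms was not tested.

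**Figure D3:**
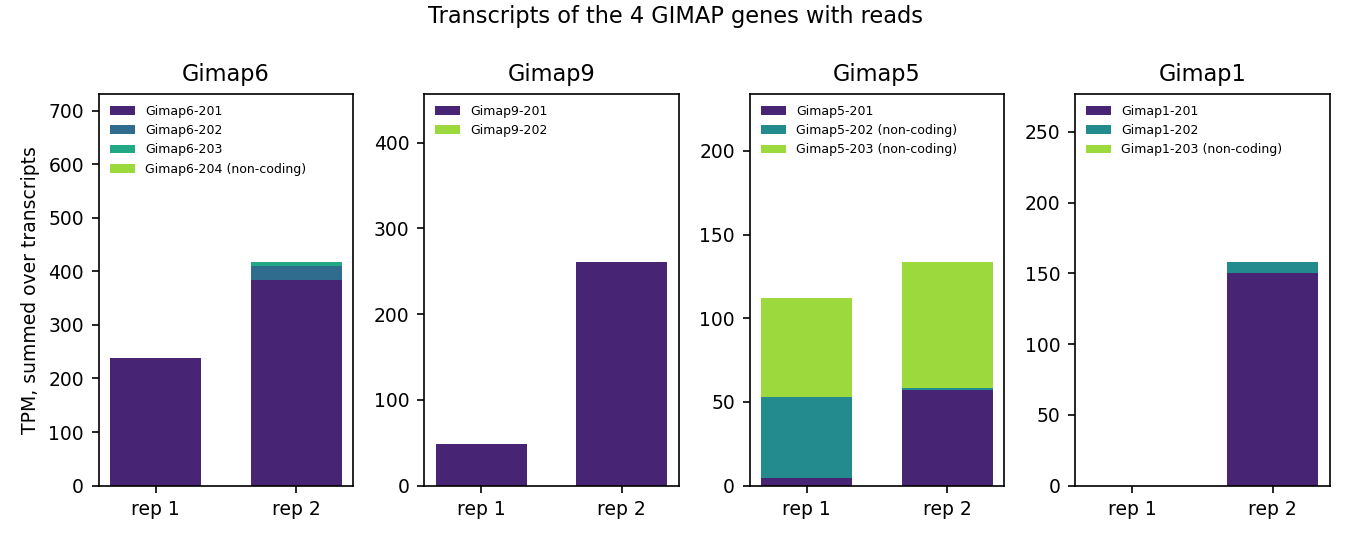
Level of each transcript, stacked to the TPM of its gene (vertical axis, a separate scale for each gene), for the 4 GIMAP genes with reads, with replicate 1 as the left bar and replicate 2 as the right bar. The coding form Gimap5-201 stood at 4.57 TPM in replicate 1 and 57.2 TPM in replicate 2 inside gene totals of 112 and 134 TPM, whereas Gimap6 and Gimap9 consisted mainly of their first listed form in both libraries.

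The members lie in 124 kb of chromosome 6 (chr6:48647234-48770851, GRCm38), in the order Gimap8, Gimap9, Gimap4, Gimap6, Gimap7, Gimap1, Gimap5 and Gimap3. Genes with and without more than 3 counts were interspersed along the cluster. Gimap9 and Gimap6, both read, flank Gimap4, and Gimap1 and Gimap5 lie between Gimap7 and Gimap3. Within the cluster and 100 kb on either side, the tables held 10 other genes, and 5 of these had reads in both libraries.

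Among these 10 neighbours, Gimap1os, an antisense RNA gene that starts inside Gimap1, behaved unlike Gimap1 itself. It had 909.99 counts and 27.4 TPM in replicate 1, against 2412.61 counts and 64.4 TPM in replicate 2 (45.9 ± 26.1, SD, n = 2). Its log2 TPM ratio was −1.20, next to −7.27 for Gimap1. The genes share 103 exon bases, chr6:48739054-48739156, out of 1722 in Gimap1os. The sources do not say whether counting used the strand, so reads in the shared stretch cannot be assigned to either gene with certainty. Gm28053, a gene model on the plus strand spanning Gimap7 to Gimap5, had 0 counts in both libraries.

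Outside the cluster, Tmem176b, a membrane protein gene, was the most even neighbour, at 405 TPM in replicate 1 and 409 TPM in replicate 2 (407 ± 2.51, SD, n = 2). Its neighbour Tmem176a stood at 74.7 TPM in replicate 1 and 179 TPM in replicate 2. Repin1, on the other side of the cluster, went the opposite way from the GIMAP genes, with 54.8 TPM in replicate 1 and 16.2 TPM in replicate 2. Of the rest, Zfp775 had 0 counts in replicate 1 and 5679 in replicate 2, Lrrc61 had 226 and 0, and Gm5111 had 123 and 0. Rarres2 had 1 and 2 counts, and AI854703 had 0 in both. Reads present in one pup and missing in the other were thus seen in both directions within 100 kb of the cluster.

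**Figure D4:**
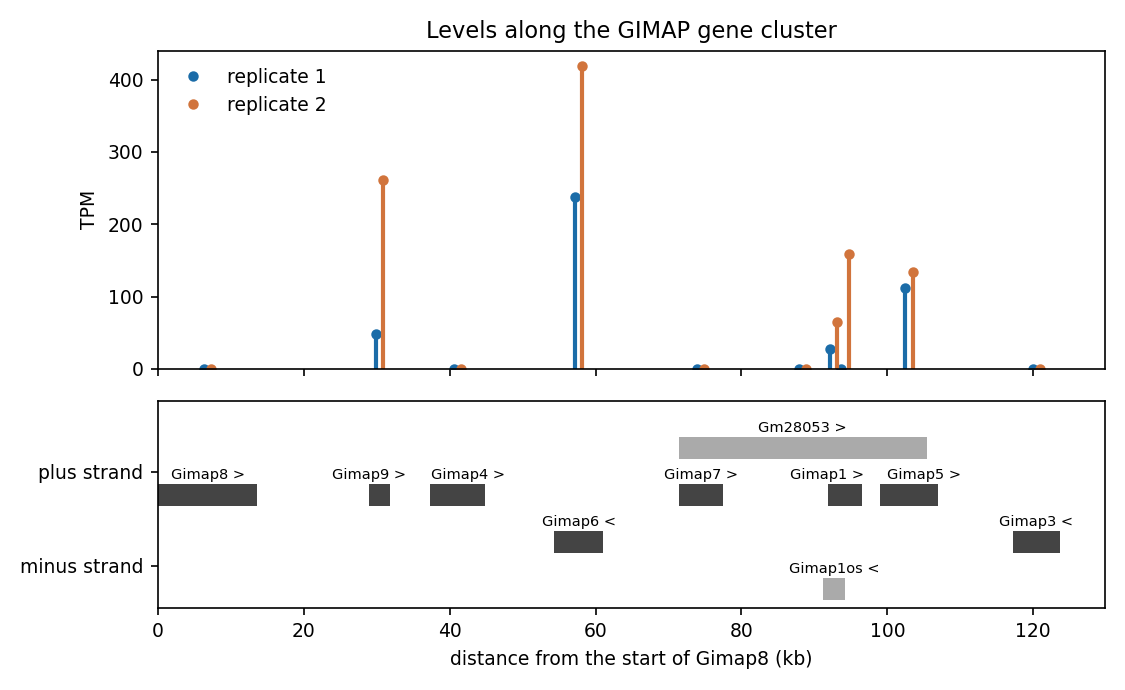
Levels along the GIMAP cluster, with TPM in replicate 1 and replicate 2 as paired stems (upper vertical axis) and gene bodies by strand (lower panel, black for members and grey for other genes) against distance from the start of Gimap8 in kb. Gimap9, Gimap6, Gimap1, Gimap5 and the antisense gene Gimap1os carry the reads, Gimap4 and Gimap7 at or near 0 lie between them, and Gimap8 and Gimap3 at or near 0 lie at the ends.

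The promoters were searched for 3 short motifs of factors that act in T cells, with the levels already known when the motifs were picked. RefSeq promoter windows (GRCm38.p6) reach from 250 bases before to 50 bases after a gene's start, and all 8 members matched, with 2 windows for Gimap8. GGAAGT, a core of sites bound by ETS-family factors, was found on either strand (ACTTCC on the other) in Gimap1, Gimap5, Gimap6 and Gimap9. These are the 4 members with more than 3 counts in a library, and the other 4 lacked it in this window. Over all 32851 promoter windows, 23.8% held it. Among protein-coding genes averaging at least 100 counts 34.0% of those with a window held it, and among those with 3 or fewer counts in both libraries 23.8% did. A match of this length is a description of the letters and not a bound site. The ETS factor Ets1 itself stood at 208 TPM in replicate 1 and 328 TPM in replicate 2. The matches are shown with the bases around them, on the strand of the gene, capitals marking the motif.
Gimap1, chr6:48739036-48739065, plus strand: ggcagcctagcgACTTCCtctatgctcagc
Gimap5, chr6:48745969-48745998, plus strand: ccaggagcttggGGAAGTgcagatgctcag
Gimap5, chr6:48746141-48746170, plus strand: aggctttccacaGGAAGTggtcattgacta
Gimap6, chr6:48708252-48708281, minus strand: taggctgtaagcGGAAGTgactggcttgtg
Gimap9, chr6:48676128-48676157, plus strand: tccacccatagaACTTCCtgtcagggaatg

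Relative to the RefSeq start, the match in Gimap1 lies 2 bases downstream, those in Gimap5 lie 216 and 44 bases upstream and that in Gimap6 lies 25 bases upstream. Gimap9 has the match shown 6 bases downstream and another 26 bases downstream. Since the motifs were picked with the levels known, the match of GGAAGT with the read members supports nothing about control. TGTGGT, a core of RUNX sites (ACCACA on the other strand), was in Gimap1, Gimap4 and Gimap7, against 16.8% of all windows. CAGGTG, an E-box (CACCTG on the other strand), was in Gimap9 alone among the members, against 20.2% of all windows.

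Proteins reported to work with GIMAP proteins were set beside the family, as 12 genes of cell survival, autophagy and protein folding. They summed to 1824 TPM in replicate 1 and 2247 TPM in replicate 2 (2036 ± 299, SD, n = 2). Reads in both libraries were found for 8 of the 12. Hspa8, the heat shock cognate chaperone reported in a complex with Gimap5, stood at 950 TPM in replicate 1 and 968 TPM in replicate 2. The autophagy genes Gabarap and Gabarapl2 stood at 389 and 459 TPM and at 279 and 203 TPM in replicates 1 and 2. Gabarapl2, the reported partner of Gimap6, was thus read in both libraries at levels of the same order as those of Gimap6.

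The Bcl-2 family, which sets whether a thymocyte lives or dies and is reported to bind Gimap3 and Gimap5, held genes with reads in both libraries and genes with reads in 1. Bcl2l1, a survival gene, stood at 79.3 TPM in replicate 1 and 287 TPM in replicate 2. The survival gene Mcl1 stood at 37.7 and 106 TPM and the pro-death gene Bad at 36.8 and 47.5 TPM in replicates 1 and 2, and none of these 3 passed the 4-fold call. Bcl2 had 0 counts in replicate 1 and 2141.14 in replicate 2, and the pro-death gene Bax had 0 and 1607. The pro-death gene Bcl2l11 went the other way, with 1406 counts in replicate 1 and 0 in replicate 2. Gabarapl1 had 8 counts in replicate 1 and 0 in replicate 2. Of the 11 listed partners averaging at least 100 counts, Bax, Bak1 and Bcl2 were 4-fold or more lower in replicate 1 and Bcl2l11 was higher. These 4 of 11 stand beside 50.9% of all genes at that level. The median log2 TPM ratio of the 11 was −1.33, which lies between those of the GIMAP genes and of all genes.

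GTPases of groups known to be induced by interferon had lower summed levels than the GIMAP genes in both libraries, although Igtp alone, at a mean of 190 TPM, stood above each member but Gimap6. Of 11 guanylate-binding proteins, large GTPases of cell-autonomous defence, 8 were found by name and summed to 111 TPM in replicate 1 and 188 TPM in replicate 2 (150 ± 54.5, SD, n = 2). The highest were Gbp8 at 20.3 and 94.3 TPM, Gbp4 at 48.6 and 20.0 TPM, and Gbp2, with 0 counts in replicate 1 and 2821 in replicate 2. Of the 5 averaging at least 100 counts, Gbp8, Gbp2 and Gbp3 were 4-fold or more lower in replicate 1, as were 29.4% of all genes at that level. Gbp4 and Gbp9 were higher in replicate 1, with log2 TPM ratios of 1.24 and 1.26, and the median of the 5 was −2.16. The 9 immunity-related and Mx GTPases summed to 196 TPM in replicate 1 and 483 TPM in replicate 2 (340 ± 203, SD, n = 2). Among them Igtp stood at 134 and 245 TPM and Ifi47 at 61.6 and 108 TPM, while Irgm1 had 0 counts in replicate 1 and 3906 in replicate 2. Of the 4 with enough counts, all were lower in replicate 1, as the GIMAP genes were, and Irgm1 and Tgtp2 were lower by 4-fold or more. The median log2 TPM ratio of these 4 was −2.76. With 4 or 5 genes a list, these counts are read only beside the background share.

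Stage genes of thymocytes were set beside the family because its members are known to change as T cells mature. Double-positive thymocyte genes, led by Cd8b1, Aqp11 and Cd8a, summed to 2056 TPM in replicate 1, against 2998 TPM in replicate 2. Cd1d1 was the member of that list with reads in replicate 2 alone, and the other 11 were read in both. Genes of mature T cells and thymic exit summed to 1456 TPM in replicate 1 and 1685 TPM in replicate 2 (1570 ± 161, SD, n = 2), with 9 of 12 read in both. That sum rested on transcription factors that thymocytes of several stages also use: Tcf7 stood at 613 and 569 TPM and Satb1 at 263 and 292 TPM. Il7r and Klf2, both on this list, had 0 counts in replicate 1, and 80 and 1 in replicate 2. Bach2 had 0 in both. Of the 8 genes averaging at least 100 counts, Ccr7, Lef1 and Runx3 were 4-fold or more lower in replicate 1, and Ccr7, the homing receptor of mature thymocytes, stood at 18.3 TPM in replicate 1 and 151 TPM in replicate 2. The median log2 TPM ratio was −1.0 for this list, −0.50 for the double-positive list and −0.01 for the T-cell defining list.

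Marker genes of other cell types that a thymus holds also differed between the libraries. Endothelial genes summed to 415 TPM in replicate 1 and 194 TPM in replicate 2, with 6 of 12 read in both and Kdr, Tek and Emcn at 0 in both. The highest were Egfl7 at 155 and 53.3 TPM, Esam at 82.8 and 44.3 TPM and Pecam1 at 63.5 and 41.7 TPM in replicates 1 and 2. Within that list Cldn5 stood at 70.3 and 0 TPM, whereas Cdh5, at 1.28 and 25.6 TPM, was lower in replicate 1 as the GIMAP genes were. Eng was lower in replicate 1 by TPM, at 20.0 and 28.7 TPM, but higher there by counts, at 1360 and 473. B-cell genes summed to 327 TPM in replicate 1 and 540 TPM in replicate 2, of which Ighm gave 327 and 482 TPM, and Pax5 and Blnk were at 0 in both. NK-cell genes summed to 407 TPM in replicate 1 and 475 TPM in replicate 2, with Gzma at 386 and 355 TPM, Nkg7 at 0 and 121 TPM and Klrd1 at 21.2 and 0 TPM in replicates 1 and 2. Of this list 5 of 8, including Ncr1, were read in neither. Macrophage genes, led by C1qb, Cd68 and C1qa, summed to 512 TPM in replicate 1 and 717 TPM in replicate 2, with 7 of 8 read in both. Markers within this list went both ways. Csf1r had 1051 counts in replicate 1 and 1 in replicate 2, and Adgre1 had 2630 and 0. Lyz2 had 43 counts in replicate 1 and 2602 in replicate 2, and C1qc had 12 and 610. Erythroid genes, led by the globin genes Hba-a2, Hbb-bs and Hba-a1, summed to 3527 TPM in replicate 1 and 9133 TPM in replicate 2, the same direction as the family. The part of any of these cells in the GIMAP levels was not tested.

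**Figure D5:**
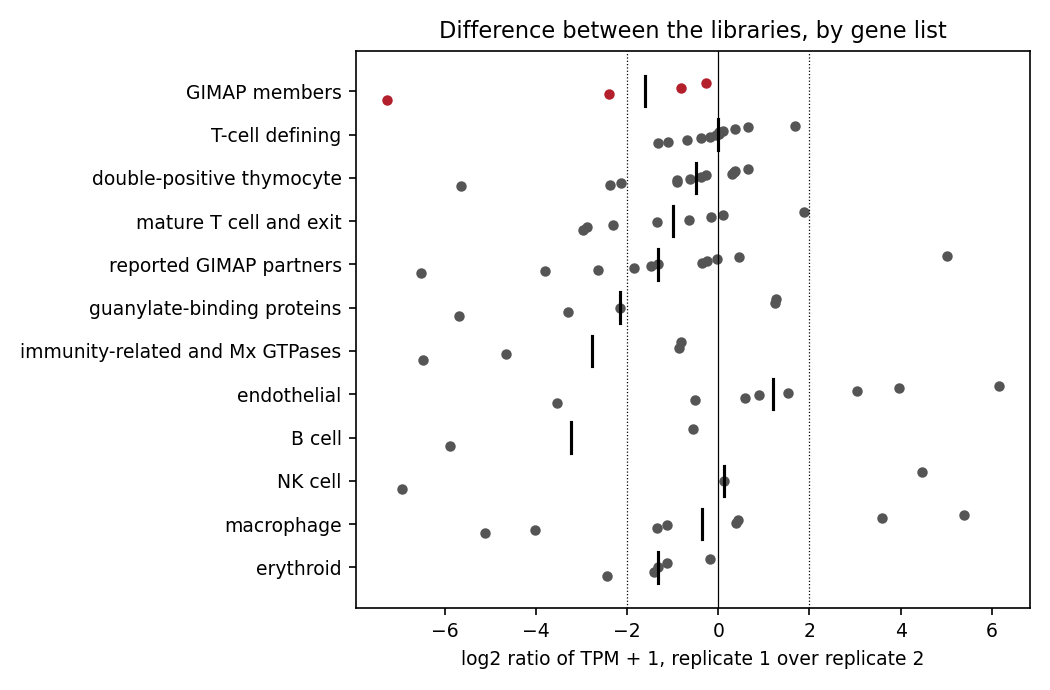
Log2 ratio of TPM + 1 in replicate 1 over replicate 2 (horizontal axis) for genes averaging at least 100 counts, by gene list (vertical axis), with a point for each gene, a bar at the list median and dotted lines at 4-fold. All 4 GIMAP points lie left of 0 with a median of −1.61, as do all points of the immunity-related and Mx GTPase, B-cell and erythroid lists. The T-cell defining genes lie on both sides of 0 with a median of −0.01, and the remaining lists also spread to both sides.

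Genes whose levels lay closest to those of a member were listed for the 3 members with 10 or more counts in both libraries, by Euclidean distance in log2(TPM + 1) over 2 libraries. For Gimap6 these were Sit1, an adaptor that restrains T-cell receptor signals, at a distance of 0.034, then Ndufb5 at 0.042 and Ndufs7 at 0.057, both subunits of respiratory complex I. Sit1 stood at 238 TPM in replicate 1 and 428 TPM in replicate 2. For Gimap5 they were Vars at 0.039, Smpd1 at 0.050 and Stap1 at 0.054. For Gimap9 they were Ncaph2 at 0.033, Rnf6 at 0.12 and Ankrd44 at 0.16. With 2 libraries such closeness says only that the genes had like levels in these pups.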

How the data were processed

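RNA over 200 nt (13 pg, with spike-ins) from the thymus of 2 pups was read in 2 libraries of 1 group, and replicate numbers come from the labels. The SD of 2 measures the spread between these samples, which may be technical in part. The assembly mm10 comes from the labels and annotation M4 from deposited text notes. The aligner and counting program were not given in the sources used here. Column names are those of RSEM, per the file headers. The deposited tables give the authors' expected counts (estimated counts that need not be whole), the authors' TPM and, for transcripts, the authors' isoform percent, with an effective length 99 bases under the length.

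TPM was rescaled to 1000000 over 43346 mouse gene identifiers, without 96 spike-ins and numeric entries, and 42462 identifiers matched GENCODE M21. Ratios divide replicate 1 by replicate 2 after adding 1 TPM, on the log2 scale, which understates differences of low genes. Calls needed 4-fold and a mean of at least 100 counts. A gene near 0 in 1 library could meet that mean through the other library alone, which then fixed its direction. A floor of 3 counts stands for 0. Exact 95% limits and floors cover counting error only. Totals were 27003123 and 32980032 expected counts in replicates 1 and 2.

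The members, gene lists and motifs were chosen with earlier results of these data known. Named genes were the members and their transcripts, neighbours within 100 kb, the 3 highest genes of each list, those counted at 5 or fewer, and the 3 nearest genes of each member. Genes outside this rule were named after their values were seen. Among them were Cd3e, Thy1, Cd247, Ncr1, Bcl2l1, Mcl1, Bad, Gbp9, Cldn5, Cdh5, Eng, Csf1r, Adgre1, Lyz2 and C1qc. Alternatives were posterior means, other scalings (edgeR 4.0.16 TMM and DESeq2 1.42.0 size factors on rounded expected counts), pseudocounts, thresholds and detection levels, thinning, and each library alone. Python 3.11.15, scipy 1.17.1, biopython 1.88 and R 4.3.3 were used. The call was also run on simulated counts with planted changes larger than 4-fold and read-counting noise alone. These libraries differ by far more than that noise, so the simulated run gives no error rate for the call here.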

Additional observations from a re-analysis of the deposited data

How the results depend on the processing

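The summed level of the family (686 TPM) lay between 518 TPM with TMM-scaled counts per kilobase and 715 TPM without mitochondrial genes. It was 594 TPM with Gimap5 counted by its coding transcript, an alternative chosen after seeing the data. Each library alone gave 399 to 972 TPM. Between 3 and 4 members were read in both libraries under the other detection levels, and 4 to 6 in each library alone. The count of members differing 4-fold was 2 under the other pseudocounts, scalings and count minimums, 1 at an 8-fold threshold (Gimap1) and 3 with Gimap5 by its coding transcript. All 29 log2 ratios tried for Gimap1, Gimap5, Gimap6 and Gimap9 were negative. That of Gimap1 ran from −10.23 with a pseudocount of 0.1 TPM to −4.07 with one of 10 TPM. That of Gimap5 was −0.26 in TPM, −1.35 with TMM-scaled counts and −1.4 with DESeq2-scaled counts, which do not correct for transcript length. Posterior means gave Gimap4 0.315 TPM and Gimap3 0.0854 TPM, still under 1 TPM. No paired analysis was possible because there was 1 group. With 2 libraries and near-zero counts in 1 of them, a level for Gimap1 is known only to within the spread between libraries (79.3 ± 112 TPM, SD, n = 2). The part of depth in that spread was not tested.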
